A study of Mus musculus with 12 samples.

Results

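8 genes whose products carry suppressive functions of Tregs were followed through RNA-seq of cultured mouse Tregs. They were the cytokine gene Il10, the IL-35 subunit genes Ebi3 and Il12a, the secreted effector gene Fgl2, the adenosine-axis genes Entpd1, Nt5e and Adora2a, and the growth factor gene Areg. The genes were chosen by name for these functions, with earlier results of these data known. All 8 were found among the 55228 genes listed, and 6 of the 8 had a mean of at least 1 TPM (a share of all transcripts, corrected for transcript length) over all libraries and entered the test. Il12a and Areg lay under that level and are given by their values with an exact permutation test.

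Tregs restrain other immune cells by several routes at once. They secrete IL-10, which signals through a receptor made of the Il10ra and Il10rb products and activates STAT3 in the receiving cell, and IL-35, which pairs the Ebi3 and Il12a chains. CD39, the product of Entpd1, removes phosphates from extracellular ATP, and CD73, the product of Nt5e, converts the resulting AMP to adenosine. Adenosine is sensed by a receptor encoded by Adora2a, which raises cyclic AMP. FGL2 is a fibrinogen-like protein that binds Fc receptors. Amphiregulin, encoded by Areg, is an EGF receptor ligand known for its part in tissue repair by Tregs. IL-2, the growth factor on which Tregs depend, signals through STAT5.

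The cells were CD25+ GFP+ Tregs sorted from the lymph nodes of 16 NOD mice carrying a GFP reporter of Foxp3. These mice gave 1 pool of cells that was divided into 3 parts. Each part had its own sorting machine and its own activation culture and supplied all of the constructs, so a replicate number stands for 1 sort in all 4 groups. P-values therefore measure the spread between cultures of 1 pool and not between mice. All groups received a retroviral vector on day 2 of culture and were sorted for its Thy1.1 reporter on day 9. Tregs with the empty vector (EV) were either washed free of IL-2 on day 4 and kept without it for 5 further days (EV no IL-2) or left in medium with IL-2 (EV+IL-2). In the tether groups the same vector also encoded an engineered IL-2 (orthoIL-2 3A10 or 1G12) bound to an engineered IL-2 receptor β chain. These cells, named 3A10t and 1G12t, were washed and kept without IL-2 like EV no IL-2. The study made the tethers so that Tregs could do without added IL-2, and the comparisons ask how the suppressive mediators stood with soluble IL-2 or a tether against neither. 3 of the 6 comparisons share the EV no IL-2 libraries and 3 share the EV+IL-2 libraries, so they are not independent of each other.

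Read numbers cannot be recovered from TPM. Sequencing depth is thus unknown, and the spread over 3 libraries is the only error. Between 30393 and 43285 genes per library were above 0, with the 3 lowest numbers in EV+IL-2. Transcripts assigned to Il2 lay at 0.183 to 0.496 TPM in the EV libraries and at 13.1 to 30.0 TPM in the tether libraries. Transcripts assigned to Thy1, whose Thy1.1 form was the sorted reporter, lay at 3141 to 3511 TPM in the EV libraries and at 183 to 263 TPM in the tether libraries (log2 fold change −3.84 in 3A10t and −3.99 in 1G12t against EV no IL-2, both called). Foxp3 was at 488 to 515 TPM in 9 libraries and at 373 to 468 TPM in the 3 of 3A10t, called lower against EV+IL-2 (−0.31, adjusted p = 0.019) and not against EV no IL-2 (−0.28, adjusted p = 0.082). 2 libraries moved several results below. The third 1G12t library had the lowest Il10 of all 12, and leaving out the first 3A10t library raised the share of all genes passing the test in 3A10t against EV no IL-2 from 2.05% to 23.2%. On the log2 scale, the median gene SD was largest in 3A10t at 0.22, then 0.15 in 1G12t, and 0.11 to 0.12 in the EV groups. The sums of the markers of other cell types were low for CD8 T cells (3.48 to 6.57 TPM), B cells (8.42 to 16.2 TPM) and dendritic cells (0.114 to 1.92 TPM). The 5 myeloid markers summed to 446 to 772 TPM, nearly all of it Cst3.

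Soluble IL-2 went with higher Fgl2 and lower Adora2a, and these were the members called in the comparison of EV+IL-2 with EV no IL-2. Il10 had a larger estimate there that did not pass with all 12 libraries (log2 fold change −1.14, limma adjusted p = 0.21). Its dependence on 1 library is given below. In bulk RNA, fewer cells that express a gene and less of its RNA per cell cannot be told apart. Fgl2 rose by 1.09 and Adora2a fell by 0.61 on the log2(scaled TPM + 1) scale, on which all fold changes below are given and which understates the change of low genes. 2 of the 6 members tested were called (1 higher, 1 lower) at an adjusted p under 0.05, where 13.3% of all 15043 genes tested were called, 8.17% higher and 5.14% lower. The median log2 fold change of the 6 was −0.015, against −0.014 for all genes. In neither tether was any member called against EV no IL-2. For 3A10t the count was 0 of 6 where 2.05% of all genes were called, with 3 of 6 at an unadjusted p under 0.05 where 26.0% of all genes were. For 1G12t the count was 0 of 6 where 0.0199% of all genes were called, and 0 of 6 were at an unadjusted p under 0.05 where 7.05% of all genes were. 3A10t and 1G12t did not differ in any member at the adjusted threshold either (0 of 6, with 4.27% of all genes called), and 3 of 6 were at an unadjusted p under 0.05 where 29.7% of all genes were. Against EV+IL-2, the same pair of genes was called in both tethers, Fgl2 lower and Adora2a higher. That was 2 of 6 in 3A10t, where 23.4% of all genes were called (10.3% higher and 13.0% lower), and 2 of 6 in 1G12t, where 20.6% were (9.70% higher and 10.9% lower). The call of Adora2a in 3A10t was at the edge of the threshold (limma adjusted p = 0.048) and held in 5 of 22 alternative settings.

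**Figure D1:**
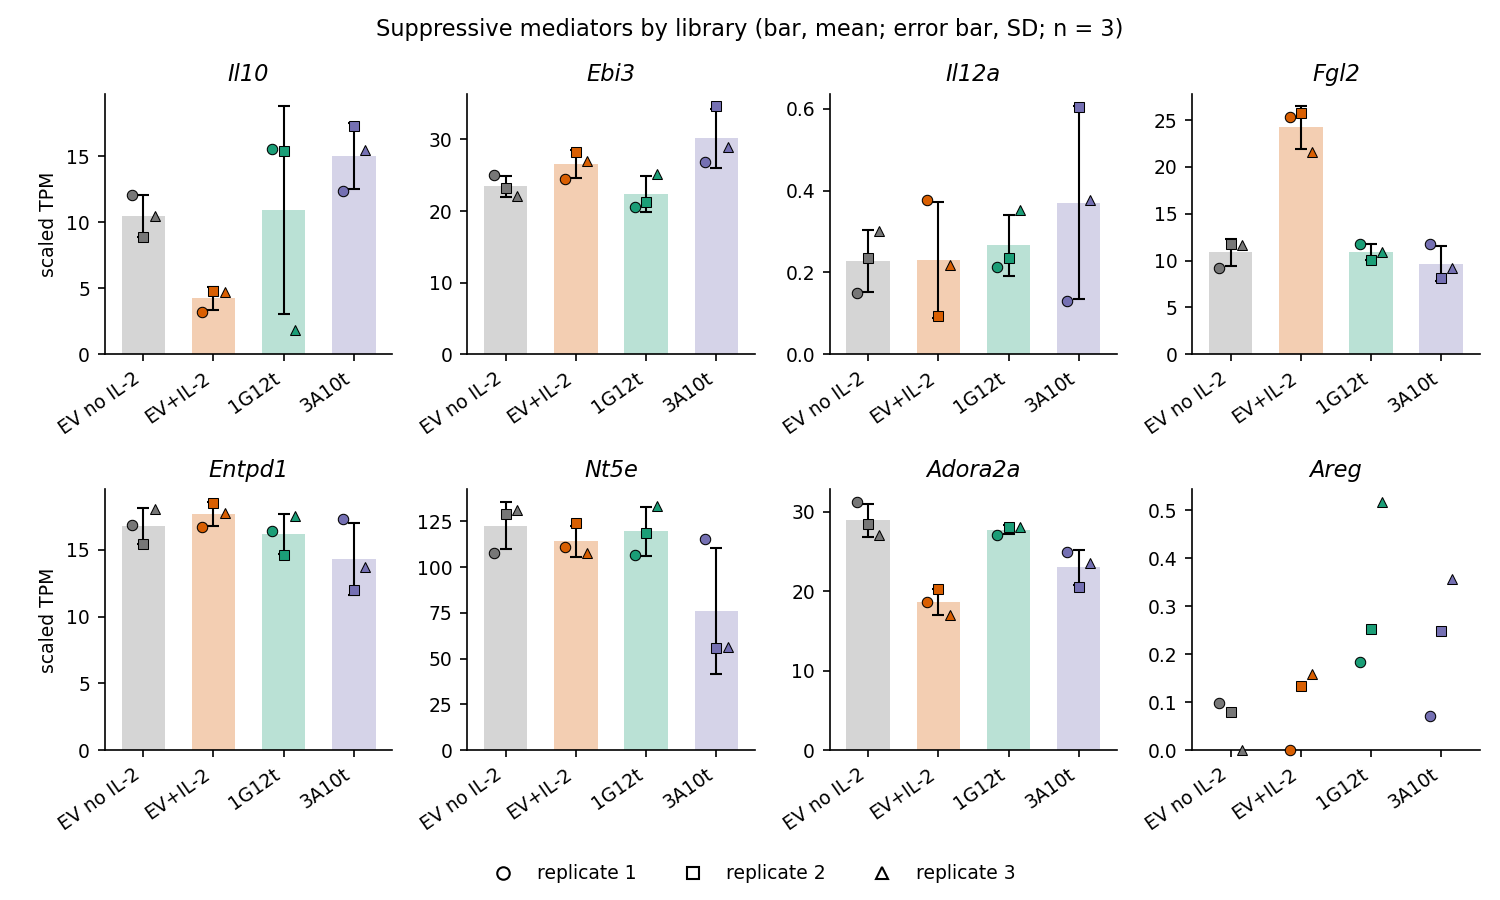
Scaled TPM of the 8 suppressive mediators in each library, by group (points, libraries, with the shape giving the replicate number; bars and error bars, mean and SD of 3 libraries; Areg, which is listed at 0 in 2 libraries, is shown as points only). The EV+IL-2 libraries lie apart from the other groups in Fgl2 (21.6 to 25.8). In Adora2a they are the lowest (17.0 to 20.3), with the second 3A10t library next at 20.6. The third 1G12t library is at 1.85 for Il10, and the first 3A10t library is at 116 for Nt5e beside 2 libraries near 56.

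**Figure D2:**
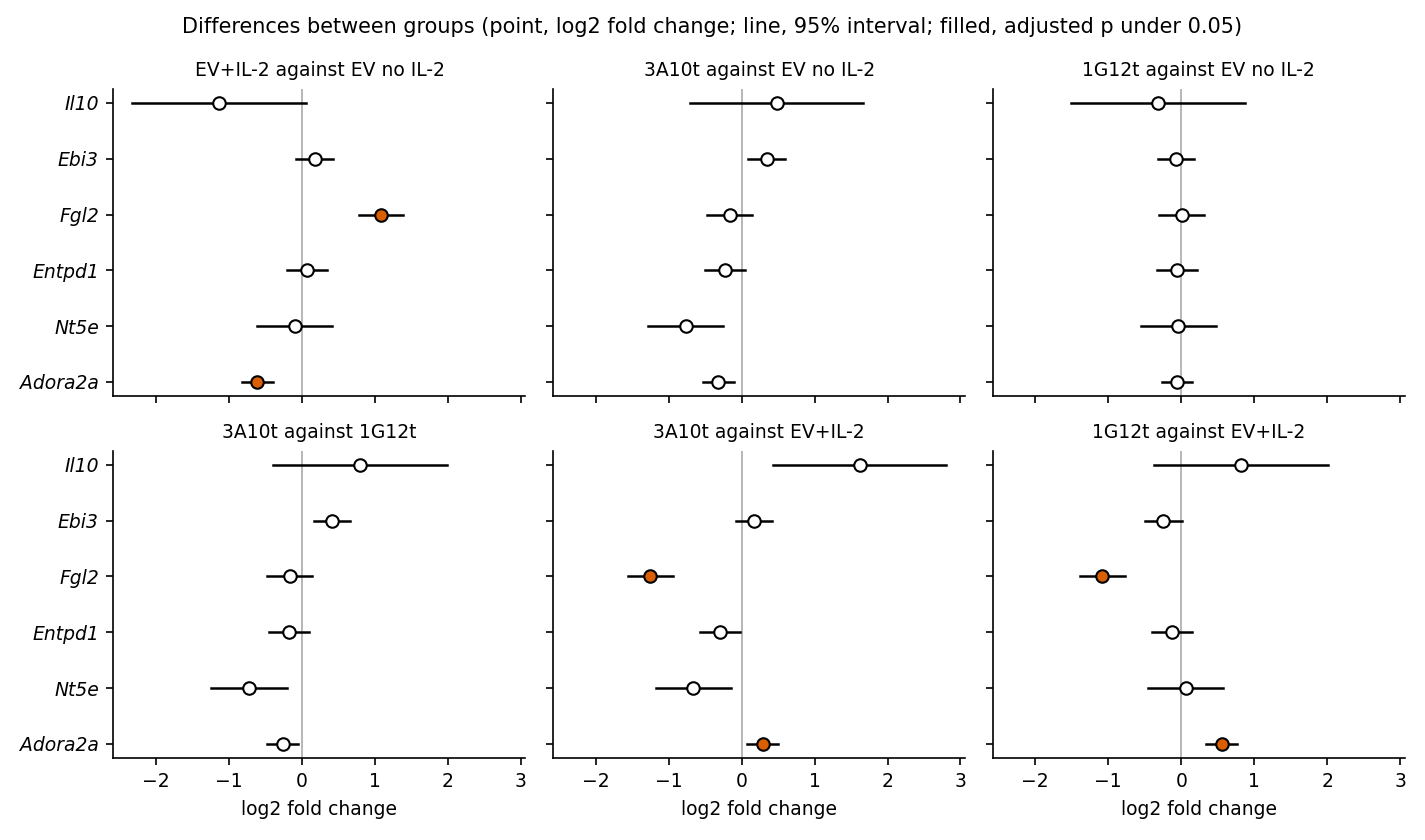
Log2 fold change of each tested member in each of the 6 comparisons (points, limma estimates; lines, 95% intervals; filled points, adjusted p under 0.05). Fgl2 and Adora2a are the filled points in the 3 comparisons that include EV+IL-2, and the 3 others have none.

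On the TPM scale, Nt5e was the most abundant member at 56.0 to 134 scaled TPM, and Ebi3 (20.5 to 34.7) and Adora2a (17.0 to 31.2) came next. Fgl2, Entpd1 and Il10 lay between 1.85 and 25.8, and Il12a and Areg stayed under 1 in every library. All 8 are protein-coding genes on the plus strand, and their positions are given for GRCm38 from GENCODE.

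Il10 (chromosome 1, 131019845 to 131024974) encodes the anti-inflammatory cytokine IL-10. It was at 12.1, 8.90 and 10.5 scaled TPM in EV no IL-2, a mean of 10.5 ± 1.59 (SD, n = 3). In EV+IL-2 it was at 3.22, 4.78 and 4.72, a mean of 4.24 ± 0.881. It was at 12.4, 17.3 and 15.5 in 3A10t, a mean of 15.0 ± 2.49. In 1G12t it was at 15.6 and 15.4 in the first 2 libraries and at 1.85 in the third, a mean of 10.9 ± 7.87 whose spread covers every other group. The 1G12t group thus held libraries near the top and the lowest library of the whole series.

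None of the differences in Il10 passed the test with all 12 libraries. The log2 fold change was −1.14 ± 0.54 (SE) in EV+IL-2 against EV no IL-2 (95% interval −2.33 to 0.054, limma adjusted p = 0.21), 0.48 in 3A10t against EV no IL-2 (adjusted p = 0.58) and 1.62 in 3A10t against EV+IL-2 (95% interval 0.43 to 2.81, adjusted p = 0.052). The fit gives a gene 1 estimate of spread for all 4 groups, so the third 1G12t library enters the error of every comparison. Without it, the EV+IL-2 against EV no IL-2 value stayed at −1.14 and passed (adjusted p = 0.0012, with 14.1% of all genes called). 3A10t against EV+IL-2 passed too (1.62, adjusted p = 0.00015, with 23.8% of all genes called), and so did 1G12t against EV+IL-2, which went from 0.82 (adjusted p = 0.32) to 1.67 (adjusted p = 0.00027, with 15.5% of all genes called). Fitted on the 6 libraries of the comparison only, EV+IL-2 against EV no IL-2 also passed (adjusted p = 0.013). Without that library Il10 in 1G12t stood 0.53 above EV no IL-2 in place of 0.31 below it, and 3A10t was 0.048 below 1G12t in place of 0.79 above it, neither past the threshold.

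Over the 12 libraries, the genes whose log2 levels were most like Il10, among 8320 with a mean of at least 10 TPM, were Prxl2a (Pearson r = 0.95), Egln3 (r = 0.93), a prolyl hydroxylase gene, and Igkc (r = 0.93), the immunoglobulin κ constant gene. These values describe 12 points in 4 groups that share 1 pool of cells, and part of each lies in the group means. The genes were picked over all 12 libraries, so their low values in the third 1G12t library are partly set by that choice. Igkc was at 26.7, 28.0 and 28.7 scaled TPM in EV no IL-2 and at 13.2, 20.9 and 15.0 in EV+IL-2. It was at 30.8, 47.9 and 30.2 in 3A10t, and at 32.4, 30.3 and 14.1 in 1G12t, with its low value in the same library as Il10. Igkc and Jchain were the plasma cell markers, and their summed level was 31.0 to 48.5 TPM in 3A10t, 14.3 to 32.5 in 1G12t, 27.7 to 28.9 in EV no IL-2 and 13.96 to 21.5 in EV+IL-2, while Jchain alone never rose above 1.203 TPM. The part of antibody-gene transcripts in the Il10 values was not tested.

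**Figure D3:**
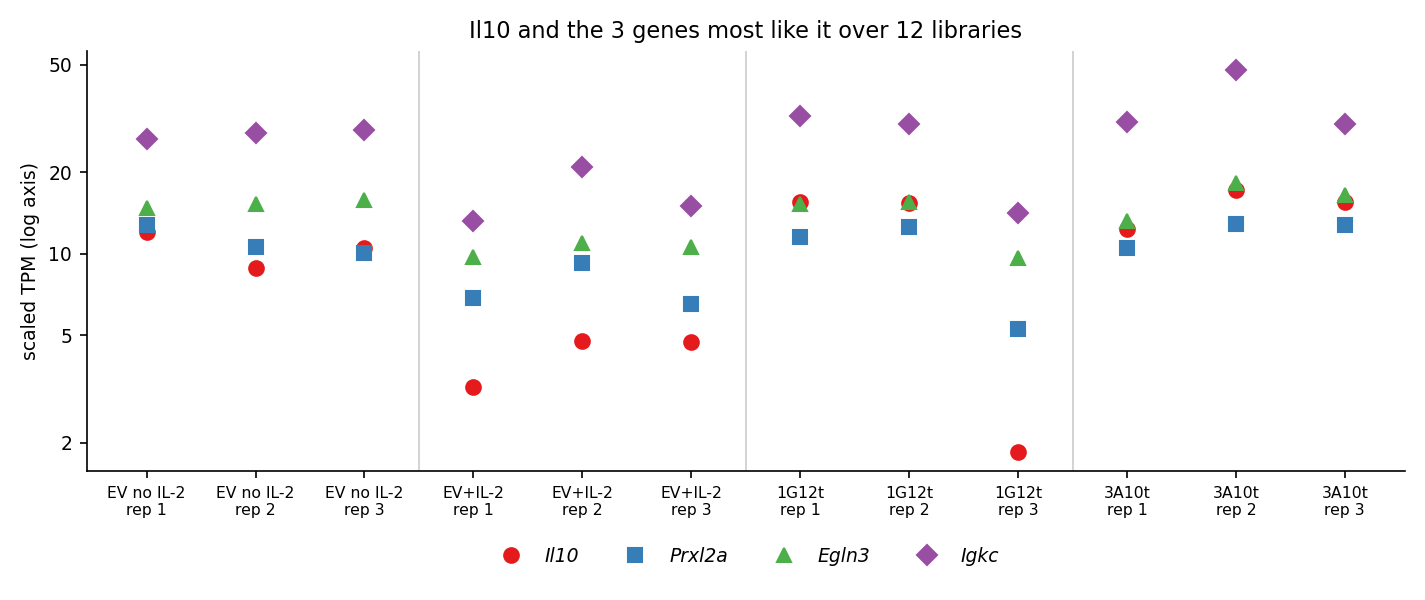
Scaled TPM (log axis) of Il10 and of Prxl2a, Egln3 and Igkc, the genes most like it, in each of the 12 libraries by group. All 4 genes are low in the EV+IL-2 libraries and in the third 1G12t library, where Il10 is at 1.85 and Igkc at 14.1. The others were picked for likeness to Il10 over these same libraries.

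Ebi3 (chromosome 17, 55952640 to 55957022) encodes the chain that IL-35 shares with IL-27. It was at 25.0, 23.2 and 22.1 scaled TPM in EV no IL-2 and at 24.5, 28.3 and 27.0 in EV+IL-2. It was at 20.5, 21.2 and 25.2 in 1G12t and at 26.8, 34.7 and 28.9 in 3A10t. From the highest, the group means were 30.2 ± 4.07 in 3A10t, 26.6 ± 1.94 in EV+IL-2, 23.4 ± 1.46 in EV no IL-2 and 22.3 ± 2.53 in 1G12t, and no neighbours in this order differed past the test. 3A10t stood above EV no IL-2 (0.34 ± 0.11, adjusted p = 0.11) and above 1G12t (0.41 ± 0.11, 95% interval 0.16 to 0.66, adjusted p = 0.058), both short of the threshold. Without the first 3A10t library both differences passed, at 0.42 (adjusted p = 0.028) and 0.49 (adjusted p = 0.013). There, 23.2% and 27.6% of all genes were called. The library left out was the lowest of 3A10t in Ebi3, so its omission widened both differences. EV+IL-2 stood 0.17 above EV no IL-2 (95% interval −0.076 to 0.42, adjusted p = 0.39).

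Il12a (chromosome 3, 68690644 to 68698547), the other chain of IL-35 and also a chain of IL-12, was low in every library. It was at 0.149, 0.236 and 0.300 scaled TPM in EV no IL-2 and at 0.376, 0.0929 and 0.219 in EV+IL-2. It was at 0.212, 0.235 and 0.351 in 1G12t and at 0.131, 0.603 and 0.378 in 3A10t. The groups overlapped in all 6 comparisons, and the two-sided exact permutation p lay between 0.4 and 1, where 3 libraries against 3 allow no p below 0.1. Transcripts of the 2 chains of IL-35 were therefore far apart in level, with Ebi3 at 20.5 to 34.7 and Il12a at 0.0929 to 0.603 scaled TPM.

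Fgl2 (chromosome 5, 21372642 to 21378374) had the largest called change of the members. It was at 9.25, 11.8 and 11.6 scaled TPM in EV no IL-2, a mean of 10.9 ± 1.43. In EV+IL-2 it was at 25.3, 25.8 and 21.6, a mean of 24.2 ± 2.30, so that every EV+IL-2 library lay above every library of the 3 other groups. It was at 11.8, 10.0 and 10.9 in 1G12t and at 11.7, 8.09 and 9.21 in 3A10t. The ratio of the means of EV+IL-2 and EV no IL-2 was 2.22, and the log2 fold change was 1.09 ± 0.14 (95% interval 0.78 to 1.39, adjusted p = 0.00042). Neither tether stood apart from EV no IL-2, with 0.0072 in 1G12t (95% interval −0.30 to 0.31, adjusted p = 1) and −0.16 in 3A10t (95% interval −0.47 to 0.14, adjusted p = 0.46). Against EV+IL-2, Fgl2 fell by 1.08 in 1G12t (adjusted p = 0.00043) and by 1.25 in 3A10t (adjusted p = 0.00018). The calls against EV+IL-2 and of EV+IL-2 against EV no IL-2 held in all 22 alternatives, with EV+IL-2 between 0.88 and 1.17 above EV no IL-2. The summed dendritic cell markers moved the other way, at 0.114 to 0.203 TPM in EV+IL-2 against 0.443 to 1.02 in EV no IL-2. The summed B cell markers were at 10.3 to 12.8 TPM against 8.42 to 10.0, but the genes of that sum did not move together. From EV no IL-2 to EV+IL-2, mean Cd79b went from 7.96 to 10.3 scaled TPM. Cd79a went from 1.31 to 1.04 and Ms4a1 from 0.183 to 0.037. The number of genes above 0 was lowest in EV+IL-2. The part of any of these in these values was not tested.

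The promoter of Fgl2 is shown because it was the member that rose with IL-2, whose signals run through STAT5. 6 of the 8 members matched a RefSeq promoter, and in the 250 bases before the start these were searched on both strands for TTCNNNGAA (STAT5), TGACGTCA (CRE), TGANTCA (AP-1) and GGAAA (NFAT core). Fgl2 was the one matched member that held TTCNNNGAA, which 7.02% of 32851 RefSeq promoters of the same length hold. The stretch below is chr5:21372573-21372651 of GRCm38.p6, plus strand, 5′ to 3′, with the match in capitals, 36 to 28 bases before the RefSeq start.
Fgl2: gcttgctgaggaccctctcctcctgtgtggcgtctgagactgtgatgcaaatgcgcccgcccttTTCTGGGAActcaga
The GENCODE start of Fgl2 lies within this match. Fgl2 also held TGANTCA, 16 bases before the RefSeq start, a motif found in 6.75% of promoters. GGAAA was found in Fgl2, Areg, Ebi3 and one of the Entpd1 windows, and in 55.6% of all promoters. Such matches describe the letters of these windows and say nothing of binding.

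The genes most like Fgl2 over the 12 libraries were Pidd1, Tex2 and Gbp4, an interferon-inducible GTPase gene, each with r = 0.98. The third 1G12t library, so low in Il10, was at 10.9 for Fgl2, between the other 1G12t libraries.

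Entpd1 (chromosome 19, 40612366 to 40741602) passed in no comparison with all 12 libraries. It was at 16.9, 15.4 and 18.1 scaled TPM in EV no IL-2 and at 16.7, 18.5 and 17.8 in EV+IL-2. It was at 16.4, 14.6 and 17.6 in 1G12t and at 17.3, 12.01 and 13.7 in 3A10t. EV+IL-2 was 0.071 above EV no IL-2 (95% interval −0.20 to 0.34, adjusted p = 0.80) and 3A10t was 0.23 below it (95% interval −0.50 to 0.048, adjusted p = 0.26). The largest difference was 3A10t against EV+IL-2, at −0.30 (95% interval −0.57 to −0.023, adjusted p = 0.11). The 2 lowest libraries of all 12 were replicates 2 and 3 of 3A10t.

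Nt5e (chromosome 9, 88327197 to 88372092), which acts on the product of CD39, had the same 2 libraries at the bottom by a wider margin. It was at 108, 129 and 132 scaled TPM in EV no IL-2, a mean of 123 ± 12.9, and at 111, 124 and 108 in EV+IL-2, a mean of 114 ± 8.54. In 1G12t it was at 106, 119 and 134. In 3A10t it was at 116 in the first library and at 56.0 and 56.6 in the others, a mean of 76.1 ± 34.3, so 1 library lay among the controls and 2 lay far below every library of the other groups. The log2 fold change of 3A10t was −0.76 ± 0.23 against EV no IL-2 (95% interval −1.28 to −0.25, adjusted p = 0.098), −0.72 against 1G12t (adjusted p = 0.081) and −0.66 against EV+IL-2 (adjusted p = 0.063). None passed.

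Without the first 3A10t library, Nt5e passed in all 3 of these comparisons, at −1.10 against EV no IL-2 (adjusted p = 0.00027), −1.06 against 1G12t (adjusted p = 0.00048) and −1.002 against EV+IL-2 (adjusted p = 0.00025), where 33.7% of all genes were called. In that fit Entpd1 passed too, against EV no IL-2 (−0.36, adjusted p = 0.035) and against EV+IL-2 (−0.43, adjusted p = 0.011). 4 of the 6 members were then called in 3A10t against EV no IL-2, Ebi3 higher and Nt5e, Entpd1 and Adora2a lower, where 23.2% of all 14974 genes tested were called. With the third 1G12t library left out as well, 5 of 6 were called where 25.8% of all genes were, the fifth being Il10 (0.61 higher, adjusted p = 0.026). Leaving out both together was chosen after the data were seen. Each library was left out in turn, and the first of 3A10t is singled out here for its effect on the calls. It was the 3A10t library nearest to EV no IL-2 in Ebi3, Nt5e, Entpd1 and Adora2a, so leaving it out widened those differences. Which of the 3A10t libraries represents the group cannot be told from 3 libraries. In 3A10t the summed B cell markers were at 11.4 to 16.2 TPM against 8.42 to 10.0 in EV no IL-2, the dendritic markers at 1.19 to 1.92 TPM against 0.443 to 1.02, and the myeloid markers, which overlapped, at 545 to 772 TPM against 511 to 552. Foxp3 was lower in every 3A10t library than in any other. The part of these in the 3A10t values was not tested.

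**Figure D4:**
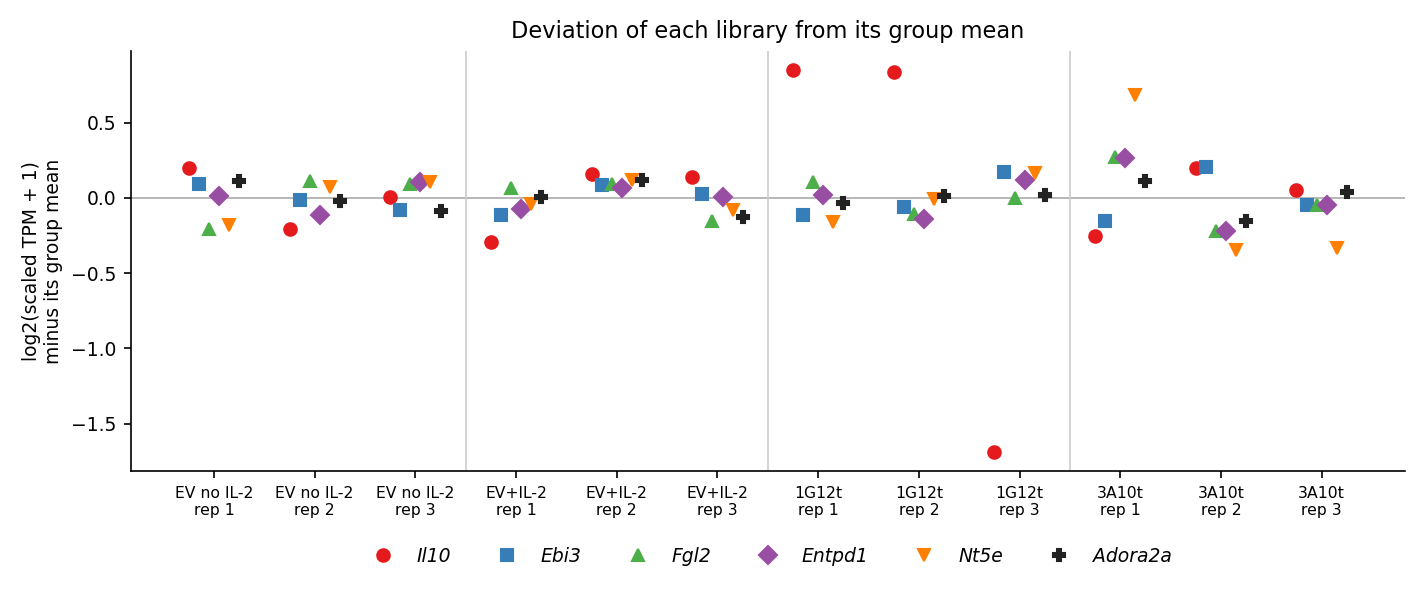
Deviation of each tested member from its group mean, on the log2(scaled TPM + 1) scale, in each library. Il10 in the third 1G12t library is 1.69 below its group mean and Nt5e in the first 3A10t library is 0.68 above its own, while the EV libraries stay within 0.30 of theirs.

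Nt5e and Entpd1 had the highest correlation of the 15 pairs of tested members over the 12 libraries (r = 0.81). Both had their largest deviations from a group mean in 3A10t. These were 0.68, −0.35 and −0.33 for Nt5e and 0.27, −0.22 and −0.045 for Entpd1. How much of this r rests on the 3A10t libraries was not tested. Ebi3 ran against Nt5e (r = −0.68), with the first 3A10t library the highest of its group in Nt5e and the lowest in Ebi3. The genes most like Nt5e were Nfatc1, which encodes a calcium-regulated transcription factor, Usp4 and Dr1, each with r = 0.98. They shared its split in 3A10t, with Nfatc1 at 63.0, 39.0 and 39.3 scaled TPM, Usp4 at 125, 69.1 and 70.7, and Dr1 at 37.6, 17.9 and 17.5. Most like Entpd1 were Hadha (r = 0.93), an enzyme gene of mitochondrial fatty acid oxidation, Tbc1d9b (r = 0.91) and Prickle1 (r = 0.91).

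Adora2a (chromosome 10, 75316877 to 75334784), the receptor gene of the axis, was at 31.2, 28.4 and 27.1 scaled TPM in EV no IL-2, a mean of 28.9 ± 2.10. In EV+IL-2 it was at 18.7, 20.3 and 17.0, a mean of 18.6 ± 1.65, the lowest of the groups. In the TPM as deposited, the second 3A10t library, at 17.4, lay within the EV+IL-2 range of 17.07 to 19.63. It was at 27.1, 28.1 and 28.1 in 1G12t, a mean of 27.8 ± 0.570, and at 24.9, 20.6 and 23.6 in 3A10t, a mean of 23.0 ± 2.22. The mean of 3A10t thus lay between those of the other groups. The log2 fold change of EV+IL-2 against EV no IL-2 was −0.61 ± 0.095 (95% interval −0.82 to −0.40, adjusted p = 0.0016), and this call held in all 22 alternatives, as did the rise of 0.55 in 1G12t against EV+IL-2 (adjusted p = 0.0024).

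3A10t stood 0.32 below EV no IL-2 in Adora2a (95% interval −0.53 to −0.11, adjusted p = 0.091) and 0.26 below 1G12t (95% interval −0.47 to −0.056, adjusted p = 0.10), both short of the threshold. Against EV+IL-2 it was 0.29 higher (95% interval 0.081 to 0.50, adjusted p = 0.048), a call at the edge of the threshold. With the replicate block, which takes out the shared sort, the adjusted p was 0.057, and the call held in 5 of 22 alternatives. Leaving out any 1 library other than the second of 3A10t ended it, with adjusted p between 0.053 and 0.17. 1G12t differed from EV no IL-2 by −0.055 (95% interval −0.26 to 0.15, adjusted p = 0.89). Adora2a was most like Fbxl12 (r = 0.98), Selenop (r = 0.96) and Prr14 (r = 0.96), and it ran against Fgl2 (r = −0.68).

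Areg (chromosome 5, 91139599 to 91148432) was lowest of the members together with Il12a. It was at 0.0993 and 0.0787 scaled TPM and listed at 0 in EV no IL-2, and listed at 0 and at 0.134 and 0.159 in EV+IL-2. It was at 0.183, 0.254 and 0.518 in 1G12t and at 0.0705, 0.248 and 0.357 in 3A10t. All 3 libraries of 1G12t lay above all 6 EV libraries, and the exact permutation p was 0.1 against each EV group, the smallest that 3 against 3 can give. This was not particular to Areg. The marker genes S100a8, S100a9, Ms4a1 and Xcr1, also near 0, likewise lay above both EV groups in 1G12t. The other marker genes under the level for testing, Cd8a, Jchain, Lyz2, Csf1r, Siglech, Clec9a, Ifng, Il4, Il13 and Il17a, overlapped EV no IL-2 there. Areg in 3A10t overlapped both EV groups, and p was 0.3 against each. At such levels a few reads would decide a value, and the number of reads is not known.

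The promoter of Areg is shown as the one matched member with a full cyclic AMP response element, the motif through which cyclic AMP signals act on genes. It is chr5:91139499-91139598 of GRCm38.p6, plus strand, 5′ to 3′, with the element in capitals, 61 to 54 bases before the start. 1.55% of promoters hold it.
Areg: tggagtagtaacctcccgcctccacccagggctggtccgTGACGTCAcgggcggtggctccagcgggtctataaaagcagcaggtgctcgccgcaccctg
Areg itself lay at or below 0.518 scaled TPM in every library.

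The genes around these mediators were taken from 5 lists of 76 genes. Of the purine and adenosine genes, 25 of 31 were tested and 5 were called in EV+IL-2 against EV no IL-2, 3 higher and 2 lower, where 13.3% of all genes were called, 8.17% higher and 5.14% lower. Ada, the adenosine deaminase that breaks down adenosine, went from 10.3 ± 1.40 to 28.7 ± 2.69 scaled TPM (log2 fold change 1.40, adjusted p = 1.7e-05). Crem, a cyclic AMP responsive repressor gene, went from 140.3 ± 4.35 to 282 ± 7.76 (1.00, adjusted p = 1.9e-05). Pde4b, a phosphodiesterase that degrades cyclic AMP, went from 47.2 ± 2.23 to 25.0 ± 1.37 (−0.89, adjusted p = 0.00028). With soluble IL-2, then, the receptor gene Adora2a and the phosphodiesterase gene Pde4b were lower, and the deaminase gene Ada and Crem were higher. Adk, the adenosine kinase gene that also clears adenosine, was lower (−0.61, limma adjusted p = 0.0035, named after its value was seen). Ada and Crem were 2 of the 3 purine genes called higher, and the other lies outside the rule for naming. The adenosine-making pair Entpd1 and Nt5e did not pass. In 3A10t, Ada, Crem and Pde4b were at 11.9 ± 0.869, 163 ± 14.2 and 42.1 ± 6.95, and in 1G12t at 9.51 ± 0.632, 137 ± 10.1 and 43.4 ± 1.42. None of them was called against EV no IL-2.

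Of the IL-10 and IL-12 family partners, 11 of 14 were tested, and 3 were called higher and 1 lower in EV+IL-2, beside 8.17% and 5.14% of all genes. Il10ra, the ligand-binding chain of the IL-10 receptor, went from 30.8 ± 0.289 to 50.0 ± 2.75 scaled TPM (0.68, adjusted p = 0.026), in the opposite direction to the values of Il10 itself. Il12rb2, a receptor chain of IL-12 and IL-35, went from 1.85 ± 0.369 to 6.80 ± 0.700 (1.46, adjusted p = 0.00067). Jak1, the kinase bound to several of these receptors, went from 383 ± 31.2 to 258 ± 13.1 (−0.57, adjusted p = 0.015). The call of Il10ra was lost when any 1 library of either EV group was left out, with TPM as deposited and with no filter (adjusted p 0.062 to 0.084, 8 of 22 alternatives), and that of Jak1 when replicate 2 or 3 of EV no IL-2 or replicate 1 or 3 of EV+IL-2 was (0.056 to 0.062).

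Of the list of EGF family ligands, shedding proteins and alarmin receptors, 9 of 16 were tested and 3 were called, all higher in EV+IL-2, beside 8.17% of all genes. Hbegf, another ligand of the EGF receptor, went from 4.45 ± 0.816 to 20.3 ± 1.02 scaled TPM (1.98, adjusted p = 1.5e-05), while its relative Areg stayed under 0.16 in both groups. Il1rl1, the IL-33 receptor, went from 4.00 ± 0.486 to 11.2 ± 0.696 (1.29, adjusted p = 0.0064). Rhbdf2, which helps release such ligands from the membrane, went from 9.35 ± 0.415 to 13.8 ± 0.795 (0.51, adjusted p = 0.022), a call lost without any 1 EV library other than the first of EV+IL-2, with TPM as deposited and with no filter (adjusted p 0.054 to 0.086, 7 of 22 alternatives).

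Of the regulators of Il10 and of tissue Treg genes, 11 of 12 were tested, with 1 called higher and 1 lower, which is near the 13.3% of all genes called. Batf, an AP-1 family factor, went from 110.0 ± 4.28 to 179 ± 1.46 (0.70, adjusted p = 0.0021), and Rbpj, the DNA-binding factor of Notch signalling, from 15.2 ± 2.00 to 10.98 ± 0.229 (−0.43, adjusted p = 0.046, called in 11 of 22 alternatives and not with the replicate block, where the adjusted p was 0.075). The relatives and receptors of Fgl2 in the fifth list, Fgl1, Fcgr2b and Fcgr3, were all under the level for testing.

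**Figure D5:**
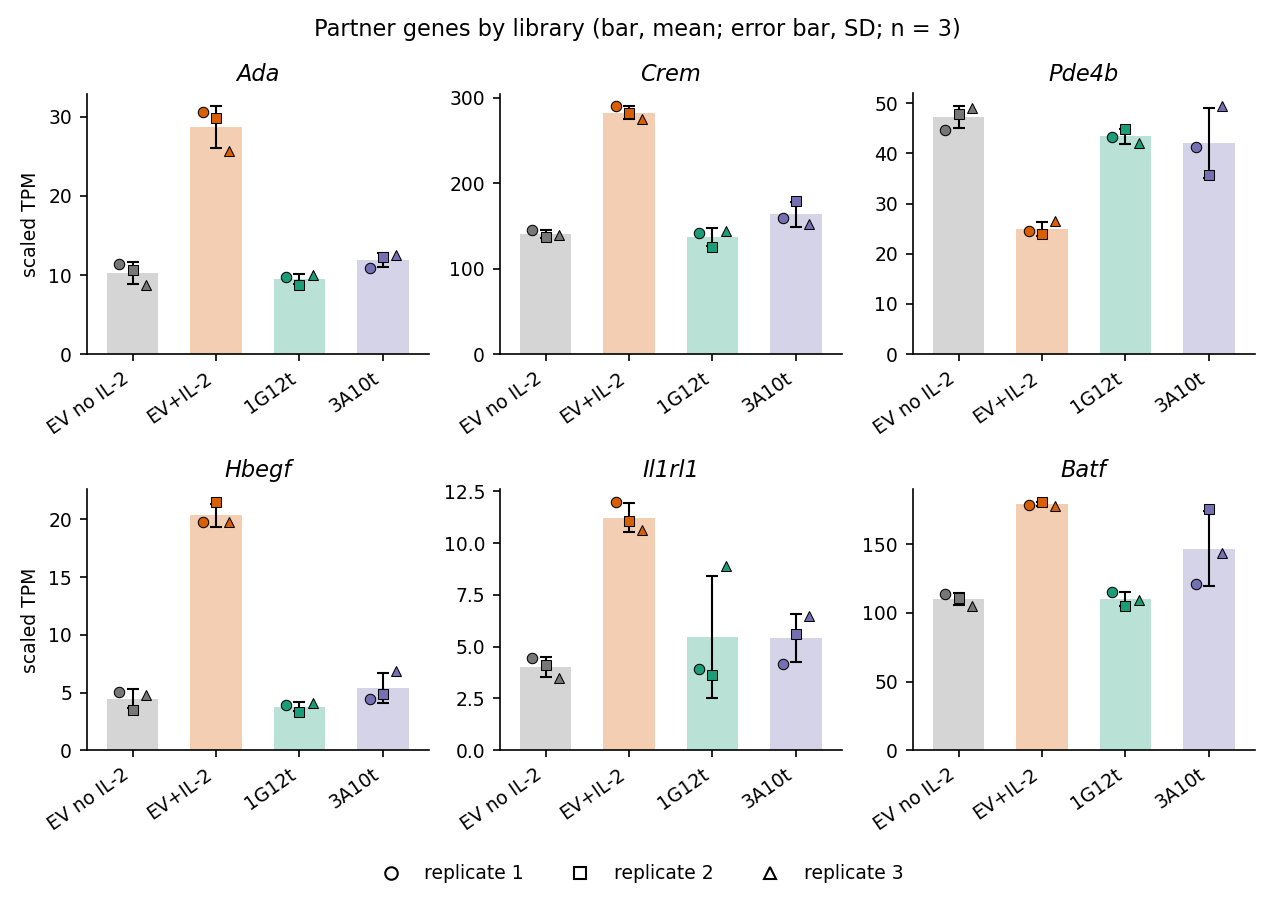
Scaled TPM of 6 partner genes in each library, by group (points, libraries, with the shape giving the replicate number; bars and error bars, mean and SD of 3 libraries). EV+IL-2 lies above every other group in Ada, Crem, Hbegf, Il1rl1 and Batf and below them in Pde4b, and the third 1G12t library is at 8.88 for Il1rl1.

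No gene of these lists was called in 3A10t or 1G12t against EV no IL-2. At an unadjusted p under 0.05, the lists of IL-10 and IL-12 partners, purine genes, EGF family genes and regulators held 4 of 11, 7 of 25, 4 of 9 and 2 of 11 tested genes in 3A10t, where 26.0% of all genes were, and 1, 2, 0 and 0 in 1G12t, where 7.05% of all genes were. Against EV+IL-2, where 23.4% of all genes were called in 3A10t and 20.6% in 1G12t, the purine list had 3 of 25 genes called higher and 4 lower in each tether, and the IL-10 and IL-12 list had 1 higher and 4 lower in 3A10t and 0 higher and 4 lower in 1G12t. The EGF family list had 0 higher and 5 lower in 3A10t and 2 higher and 2 lower in 1G12t, and the regulators 1 in each direction in both.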

How the data were processed

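RNA was measured in 12 libraries of sorted mouse Tregs, 3 in each of 4 groups taken from the sample labels. The deposited values are TPM for 55228 gene symbols, 1 column per library, and all 12 columns were used. By the submitters' processing notes and the paper's methods, the authors trimmed reads with cutadapt 1.18, aligned them to mm10 with STAR 2.5.3 and estimated expression with RSEM 1.3.0, and used DESeq2 1.26 on counts. Only TPM were analysed here, and as depth is lost in them no counting error could be given.

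TPM were divided by median-of-ratios factors (0.846 to 1.08). log2(scaled TPM + 1) of the 15043 genes averaging 1 TPM or more was tested with limma (lmFit, then eBayes using the mean-variance trend). The fit held all 12 libraries, a mean for each group and no block, and p-values were adjusted by Benjamini-Hochberg over these genes. A gene was called at an adjusted p under 0.05. Members under the filter had a two-sided exact permutation test. The code was tested on simulated data. The members, lists and tests were chosen with earlier results of these data known. Named are every member, up to 3 called genes per list in EV+IL-2 against EV no IL-2, any called in a tether against EV no IL-2, and the 3 genes of at least 10 mean TPM most correlated with each member. No 2 libraries were alike beyond 5.41% identical TPM.

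The labels give same-numbered libraries a shared sort, which pairs them. Deviations of such libraries from their groups correlated with a mean r of 0.041 in 18 pairs (−0.11 to 0.15), and those of 36 pairs of unlike number with a mean r of −0.020. Alternatives were the replicate block, each library left out in turn, a fit on the 6 libraries of a comparison alone, unscaled TPM, quantile normalization, pseudocounts of 0.1 and 5, a filter at 5 TPM or none, and eBayes with no trend. Leaving out the third 1G12t and first 3A10t libraries together was added after the data were seen. Gene positions came from GENCODE M21 (GRCm38), while the authors' annotation was another GENCODE release. Promoters are from RefSeq on GRCm38.p6. R 4.3.3, limma 3.58.1, Python 3.11.15 and matplotlib 3.10.9 were used. 1 gene of the lists is not reported here.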

Additional observations from a re-analysis of the deposited data

How the results depend on the processing

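Over 22 alternatives, 729 of 792 member values kept their direction and side of the threshold, 33 passed that had not, 17 no longer passed and 13 turned direction. The count of members called stayed at 2 to 3 in EV+IL-2 against EV no IL-2 and in 1G12t against EV+IL-2 when 1 library was left out, and at 0 in 1G12t against EV no IL-2. In 3A10t against EV no IL-2 it ran from 0 to 4 with 1 library left out (4 without 3A10t replicate 1) and was 5 without that library and 1G12t replicate 3 together. In 3A10t against 1G12t it was 1 with a mean TPM of at least 5, 1 with TPM as deposited, 2 without both libraries, and 0 to 3 with 1 left out. In 3A10t against EV+IL-2 it was 1 with a pseudocount of 0.1, with TPM as deposited, with the replicate block and with eBayes without a trend, 4 without both libraries, and 1 to 3 with 1 left out. The replicate block changed no other call of a member.

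The values that turned direction were all short of the threshold. In 1G12t against EV no IL-2, Nt5e went from −0.038 to 0.0049 with TPM as deposited, 0.030 with quantile normalization, 0.0098 without EV no IL-2 replicate 3 and 0.043 without 1G12t replicate 1. Fgl2 went from 0.0072 to −0.041 with quantile normalization, −0.098 without EV no IL-2 replicate 1 and −0.045 without 1G12t replicate 1, and Entpd1 went from −0.053 to 0.015 without 1G12t replicate 2. Il10 went from −0.31 to 0.53 without 1G12t replicate 3 and also without both libraries, and in 3A10t against 1G12t from 0.79 to −0.048 without 1G12t replicate 3. Nt5e in 1G12t against EV+IL-2 went from 0.062 to −0.019 without 1G12t replicate 3 and −0.018 without both. With each library left out in turn, these ranged from −0.74 to 0.53 for Il10, −0.098 to 0.061 for Fgl2, −0.13 to 0.043 for Nt5e and −0.11 to 0.015 for Entpd1 in 1G12t against EV no IL-2, from −0.048 to 1.22 for Il10 in 3A10t against 1G12t, and from −0.019 to 0.15 for Nt5e in 1G12t against EV+IL-2. A left-out library leaves 2 in its group, and the cause of these shifts was not tested. Depth, which TPM do not keep, limits what can be said of Il12a and Areg.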

Other observations

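The third 1G12t library, lowest in Il10, also stood apart from the other 1G12t libraries in genes of the partner and marker lists. These were chosen after their values were seen. Bhlhe40, a transcription factor gene, was at 82.3 scaled TPM there against 142 and 146, and Ikzf3 at 17.8 against 31.0 and 36.5. Prxl2a and Egln3, from outside those lists, were at 5.28 and 9.67 there. They were picked for likeness to Il10 over libraries that include this one. Their low values are partly set by that choice and do not show the library apart. In the other direction, Ikzf2, which encodes the Treg factor Helios, was at 299 against 151 and 179, Gata3 at 186 against 137 and 138, Il27ra at 281 against 181 and 194, Cd38 at 15.6 against 8.75 and 9.04, Il1rl1 at 8.88 against 3.90 and 3.61, and P2rx7 at 20.7 against 8.48 and 12.8. 1 of the EV+IL-2 libraries, the third, was at 297 for Ikzf2.

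Erbb3, an EGF family receptor gene, was the one partner gene called in 3A10t against 1G12t (log2 fold change −0.77, adjusted p = 0.04). Il12rb1, the chain that partners Il12rb2, was 0.66 lower in 3A10t (adjusted p = 0.05) and 0.75 lower in 1G12t (adjusted p = 0.031) than in EV+IL-2. Adk, the adenosine kinase gene, was at 70.0 ± 7.98 scaled TPM in EV+IL-2 and at 105 ± 5.999 in 1G12t, 107 ± 9.18 in EV no IL-2 and 109 ± 10.2 in 3A10t. These genes lie outside the rule for naming and were picked after their values were seen.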
